A study of Mus musculus with 30 samples.

Results

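Described here are 10 genes linked to the vessel wall, measured in RNA of the gut musculature. The levels of these genes cannot be read as those of the vessel wall alone. Icam1, Vcam1, Sele and Selp are leukocyte adhesion molecules, and Pecam1, Cdh5, Kdr and Cldn5 are endothelial identity genes. Ackr1 and Vwf are venular genes. The 10 genes were chosen by name. The rule that picks them uses no measured value, although earlier results of these data were known when they were chosen. They are 10 of 28586 gene symbols listed over both RNA fractions of the series. The table of total RNA lists 9 of them among 24601 genes, since Sele is not in it, and the tables of precipitated RNA list all 10 among 26179 genes.

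In inflamed tissue, leukocytes leave the blood mainly through postcapillary venules. Selectins on the activated endothelium slow them down, and ICAM-1 and VCAM-1 then bind leukocyte integrins and hold them. PECAM-1, VE-cadherin (Cdh5) and claudin-5 (Cldn5) sit at the junctions between endothelial cells, VEGFR2 (Kdr) receives VEGF, ACKR1 carries chemokines across venules, and von Willebrand factor (Vwf) is stored with P-selectin in endothelial granules. ICAM-1 and VCAM-1 are not restricted to endothelium, PECAM-1 is also found on platelets and leukocytes, and P-selectin and von Willebrand factor are also products of platelets and megakaryocytes.

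RNA was taken from the small bowel muscularis externa (ME), the muscle coat with its nerves and vessels, of unoperated (naïve) mice and of mice whose bowel had been manipulated 3 h (IM3h), 24 h (IM24h) or 72 h (IM72h) earlier. Intestinal manipulation is a surgical model of postoperative ileus in which the opened abdomen and a rolling pressure on the bowel start a muscularis inflammation. Total ME RNA gave 3 naïve, 3 IM3h, 4 IM24h and 4 IM72h libraries. RiboTag libraries, made from mRNA precipitated with ribosomes that carry a tagged RPL22 in Cre-expressing cells, numbered 3 for naïve mice, where the labels list 4, and 4 at each time point. Mice were male and 10 to 12 weeks old. The RiboTag animals of every group, naïve ones included, were B6 Tg(Sox10-icre/ERT2)388Wdr/J crossed with B6N.129 Rpl22tm1.1Psam/J, a line in which tamoxifen switches on Cre in Sox10-expressing glia, and the study's methods state tamoxifen for 3 days, 1 week before the experiments. The labels give the same cross for ME libraries of IM24h and IM72h, but B6.Cg-Tg73.12Mvs/J(Gfap-cre) crossed with B6N.129 Rpl22tm1.1Psam/J for ME libraries of naïve mice and IM3h. In ME, the comparisons of IM24h and IM72h with naïve mice therefore cannot be told apart from the mouse line, whereas IM3h against naïve and IM72h against IM24h stay within 1 line. The labels do not say that replicates are separate animals, but the study's legends count them as mice, and a p-value measures the spread between these libraries.

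Library totals ran from 6603125 to 12866014 estimated counts in ME and from 3010338 to 7899551 in RiboTag. The RNA AY036118, which overlaps ribosomal RNA, held 16.1% to 33.5% of counts in naïve ME, 24.1% to 25.1% at IM3h, 1.33% to 6.5% at IM24h and 2.34% to 3.69% at IM72h. In RiboTag its share was 2.68% to 14% in naïve mice, 2.02% to 10.3% at IM3h, 22.2% to 59.2% at IM24h and 58.0% to 80.1% at IM72h. RiboTag IM72h libraries held 8814 to 11729 genes with a count against 17262 to 19422 in naïve ones, and pairs of them correlated at r = 0.449 to 0.542 over genes, against 0.894 to 0.924 for naïve pairs. The glial gene Sox10, which marks the cells that carry the tag, was 699 ± 297 CPM (SD, n = 3) in naïve RiboTag libraries and 3.94 ± 5.41 CPM (SD, n = 4) at IM72h, while S100b, another glial gene, was 555 ± 138 CPM and 742 ± 449 CPM. The 6 glial genes summed to 1554 to 1872 CPM in naïve libraries and 140 to 1453 CPM at IM72h. The IM24h RiboTag libraries mostly lay between these in genes with a count (11629 to 16746), in r between pairs (0.641 to 0.863) and in mean Sox10 (193 ± 182 CPM, SD, n = 4). Their glial sums of 783 to 924 CPM lay within the range of IM72h. Their S100b, at 367 ± 152 CPM (SD, n = 4), was below the means of naïve mice and IM72h. RiboTag values at 24 h and at 72 h thus rest on libraries that stand apart. Levels are given as CPM, counts scaled to the library size with TMM within each fraction, and libraries are numbered in the order of the tables. The comparisons of a fraction with naïve mice share the same 3 naïve libraries. Where groups are said not to overlap, this describes their libraries only. How many of all genes do not overlap between the same groups was not counted.

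All 10 genes are protein coding, and their places on GRCm38 (mm10) are those of the GENCODE annotation. Icam1 lies at chr9:21015985-21028817 on the plus strand, Vcam1 at chr3:116109949-116129688 on the minus strand, Sele at chr1:164048234-164057677 and Selp at chr1:164115264-164150026, both on the plus strand. Pecam1 lies at chr11:106654217-106750628 and Kdr at chr5:75932827-75978458, both on the minus strand. Cdh5 lies at chr8:104101625-104144511 and Cldn5 at chr16:18776847-18778262, both on the plus strand. Ackr1 lies at chr1:173331886-173333750 on the minus strand and Vwf at chr6:125546774-125686679 on the plus strand. Antisense genes overlap Icam1 and Selp at their 3′ ends and Vcam1 and Cdh5 at their 5′ ends, and Ackr1 overlaps the 3′ end of Cadm3 on the same strand. Whether the counting used the strand is not given in the sources used here, so reads of the antisense pairs may not be fully separated. For Ackr1 and Cadm3, counting by strand would not separate the reads where the genes overlap.

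The first comparison asked how the adhesion genes of the ME moved within 3 h of surgery. Icam1 and Selp rose 26.6-fold and 28.2-fold, and Vcam1 rose 1.74-fold. Icam1 was 3.26, 2.58 and 4.60 CPM in the naïve libraries and 80.3, 124 and 73.3 CPM at IM3h. Every IM3h library lay far above every naïve one, with a log2 fold change of 4.73 ± 0.27 (SE) and an adjusted p of 1.23e-06 (edgeR quasi-likelihood test). Selp, whose product P-selectin catches rolling leukocytes, was 0, 0.861 and 0.484 CPM in naïve ME, from 0, 4 and 4 counts, and 8.60, 14.5 and 10.3 CPM at IM3h, from 61, 98 and 62 counts. The groups did not overlap, and the log2 fold change was 4.82 ± 0.61 (SE) with an adjusted p of 2.27e-04. Since the naïve libraries together hold 8 counts of Selp, the ratio of summed CPM, 29.4, has an exact 95% interval for counting error of 14.7 to 69.0, and it was 17.9 without naïve library 1 and 45.9 without naïve library 2. Vcam1 was 14.6, 14.4 and 14.6 CPM in naïve libraries and 22.3, 29.1 and 22.3 CPM at IM3h, without overlap, a log2 fold change of 0.80 ± 0.17 (SE) with an adjusted p of 0.00474. Of the 9 members tested, 4 were called higher and 0 lower at an adjusted p under 0.05, against 19.3% and 13.4% of all 15333 genes tested.

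**Figure D1:**
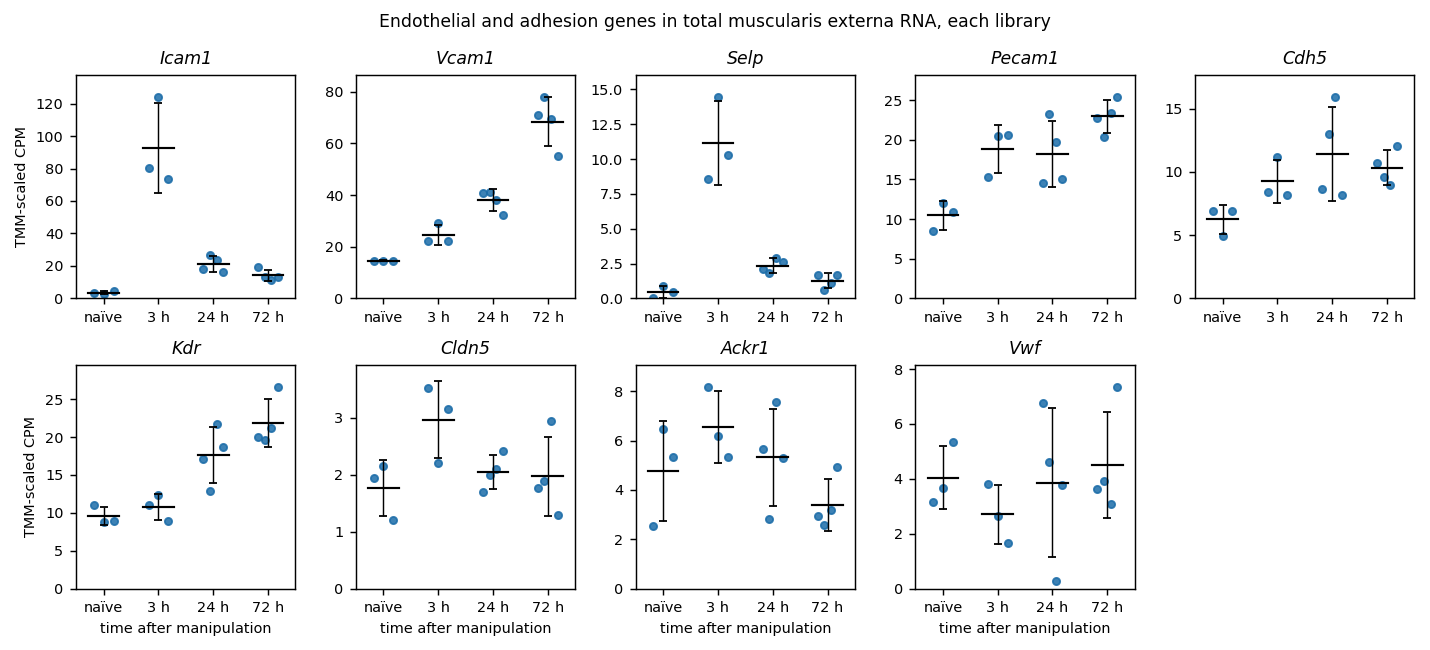
Each panel plots 1 gene in total ME RNA, with the level of each library in TMM-scaled CPM on the y axis and naïve mice and the time after manipulation on the x axis. Points are libraries, the horizontal line is the mean and the bar the SD. Icam1 and Selp peak at 3 h (means 92.6 and 11.1 CPM), Vcam1 is highest at 72 h (mean 68.4 CPM), and Ackr1 and Vwf overlap between naïve mice and every time point.

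The promoters of Icam1 and Selp are shown because both genes rose early and both hold a match to the letters of a κB site, the element that NF-κB binds in many genes of activated endothelium. The sequences are the 250 bases before the RefSeq start of each gene in GRCm38.p6, 5′ to 3′ on the gene's strand, with the κB match in capitals. Icam1 is chr9:21015690-21015939 and Selp is chr1:164115014-164115263.
Icam1: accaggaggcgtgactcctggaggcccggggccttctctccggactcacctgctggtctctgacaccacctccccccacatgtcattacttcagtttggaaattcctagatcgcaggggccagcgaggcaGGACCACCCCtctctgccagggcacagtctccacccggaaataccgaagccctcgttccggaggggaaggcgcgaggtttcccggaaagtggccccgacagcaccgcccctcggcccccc
Selp: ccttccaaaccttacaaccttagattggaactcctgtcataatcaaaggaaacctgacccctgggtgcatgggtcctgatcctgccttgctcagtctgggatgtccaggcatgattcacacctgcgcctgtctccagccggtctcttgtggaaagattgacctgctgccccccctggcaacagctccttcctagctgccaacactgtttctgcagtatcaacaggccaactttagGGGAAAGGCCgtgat
The letters searched on both strands were GGG and CC with any 5 bases between them for κB, TGANTCA for AP-1 and AGGAA for ETS factors, and 45.8%, 6.75% and 60.3% of 32851 promoters in the table hold them in the same 250 bases. The κB match of Icam1 lies on the opposite strand 120 to 111 bases before the start, and that of Selp on the same strand 15 to 6 bases before it. Of 6 members with a promoter in the table, κB letters stand in 5 (Icam1, Sele, Selp, Kdr and Cldn5), AP-1 letters in Sele and Selp, and ETS letters in Icam1, Sele, Selp and Ackr1. Since the κB letters stand in so many promoters, a match is a description of the sequence and not a binding site. Looser κB forms were not searched, such as tggaaattcc in the same Icam1 sequence. Lower case therefore does not mean that a κB site is absent. The table has no entry for Vcam1, Pecam1, Cdh5 and Vwf.

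Among the identity genes at 3 h, Pecam1 rose and the other 3 did not pass the test. Pecam1, at the borders of endothelial cells, was 8.46, 12.1 and 10.9 CPM in naïve ME and 15.4, 20.5 and 20.6 CPM at IM3h, without overlap, a log2 fold change of 0.90 ± 0.21 (SE) with an adjusted p of 0.00853. Cdh5, the adherens junction cadherin of endothelium, was 6.89, 4.95 and 6.90 CPM in naïve libraries and 8.45, 11.2 and 8.15 CPM at IM3h. Its groups did not overlap, but its log2 fold change of 0.60 ± 0.25 (SE) had an adjusted p of 0.0956. Cldn5, the tight junction claudin of vessels, stood at 1.21 to 2.15 CPM in naïve libraries and 2.21 to 3.52 CPM at IM3h, without overlap and from 10 to 25 counts a library, with a log2 fold change of 0.82 ± 0.44 (SE) and an adjusted p of 0.179. Kdr, at 8.83 to 11 CPM and 8.98 to 12.4 CPM, and the venular genes Ackr1 and Vwf overlapped between the groups, with adjusted p-values of 0.483, 0.309 and 0.379. With scaling to Actb, Hsp90ab1 and Rplp1, which moved the median of all genes to -0.41, the calls of Vcam1 and Pecam1 were lost (log2 fold changes of 0.39 and 0.50, adjusted p of 0.0912 and 0.0667), and with scaling to the library total that of Vcam1 was lost (0.55, adjusted p of 0.0648, median of all genes -0.26).

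Lists of further genes at 3 h are read beside the 19.3% of all genes called higher and the 13.4% called lower, and differences between lists were not tested. Of 25 further genes of blood vascular endothelium, 21 were tested, 2 rose (Flt1, the decoy VEGF receptor VEGFR1, by 1.28 on the log2 scale, and Cd93, by 0.82), 2 fell (Cd34 fell by 1.19 and Ramp2 by 1.16), and the median log2 fold change was 0.05 against 0.00 for all genes. Of 8 genes of activated or sprouting endothelium, 7 were tested and 4 rose: the protein C receptor Procr (3.40 on the log2 scale), Lrg1 (2.13), the Tie2 ligand Angpt2 (1.70) and thrombomodulin, Thbd (1.53). Of 11 cytokines, growth factors and receptors that act on endothelium, 10 were tested, 7 rose and 1 fell, with Il6 (6.05), Il1b (4.56), Tnf (4.47) and the interleukin-1 receptor Il1r1 (2.43) changed most. Of 9 partners of the adhesion molecules on leukocytes, 8 were tested, 3 rose and 1 fell, among them the integrin subunit Itgam (2.08), which pairs with Itgb2 to bind ICAM-1, while Itga4, a subunit of the VCAM-1 receptor, fell by 0.80. Itgb1, which pairs with Itga4, rose by 0.34 (adjusted p of 0.0315), but was -0.0696 with the 3 reference genes. Of 8 other junction and transmigration genes, 6 were tested, 1 rose and 1 fell (Cd99l2, by 0.36). Of 7 lymphatic endothelial genes, 6 were tested and Pdpn (1.18) and the transcription factor Prox1 (1.12) rose.

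At 24 h, Icam1 was higher than in naïve mice, with every library below those of IM3h, a difference that was not tested, and Vcam1 and 2 identity genes were higher. Icam1 was 18.1, 26.4, 23.6 and 16.4 CPM at IM24h, a log2 fold change against naïve of 2.57 ± 0.30 (SE) with an adjusted p of 3.17e-04, and Vcam1 was 40.9, 41.0, 38.2 and 32.2 CPM, a log2 fold change of 1.38 ± 0.17 (SE) with an adjusted p of 4.00e-04. Both stayed called in all 14 alternatives. Pecam1, at 14.6, 23.3, 19.8 and 15 CPM, and Kdr, the main VEGF receptor of endothelium, at 17.1, 12.8, 21.7 and 18.7 CPM, lay above all naïve libraries, with log2 fold changes of 0.80 ± 0.25 (SE) and 0.87 ± 0.25 (SE) and adjusted p-values of 0.0382 and 0.0251. Selp, at 2.07, 1.80, 2.91 and 2.64 CPM, lay above all naïve libraries too, with a log2 fold change of 2.46 ± 0.95 (SE) and an adjusted p of 0.0759, as did Cdh5, at 8.67, 13.0, 15.9 and 8.15 CPM, with 0.86 ± 0.33 (SE) and 0.0759. Cldn5, Ackr1 and Vwf overlapped with naïve libraries. Of the 9 members, 4 were called higher and 0 lower, against 15.6% and 13.4% of 16328 genes.

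The calls of Pecam1 and Kdr at 24 h depended on the scaling and on single libraries. With the 3 reference genes, which moved the median of all genes to -0.35, both were lost (Pecam1 0.39, adjusted p of 0.407, Kdr 0.53, adjusted p of 0.379), and without the filter on low counts that of Pecam1 was lost (0.0617). Selp was called with DESeq2 (adjusted p of 0.0234), with all 4 groups in 1 fit (0.0074) and with library totals (0.0200, or 0.0459 without AY036118), and Cdh5 in the same pooled fit (0.0202) and with library totals (0.00661, or 0.0193 without AY036118). The call of Pecam1 was lost without IM24h library 2 (adjusted p of 0.0777) or 3 (0.0817) and without naïve library 1 (0.178), 2 (0.0774) or 3 (0.107). That of Kdr was lost without IM24h library 3 (0.0633) and without naïve library 1 (0.0624), 2 (0.0987) or 3 (0.106), and that of Cdh5 was gained without IM24h library 4 (0.0334). Further lists at 24 h are read beside the 15.6% of all genes called higher and the 13.4% called lower. Of the 25 further endothelial genes, 24 were tested, 8 rose, with Sox17 (2.77 on the log2 scale), Fli1 (2.45), Cd93 (2.41) and Podxl (1.71) in front, and 1 fell, Aqp1, by 1.01. Their median was 0.88 against 0.02 for all genes. Leukocyte partners rose in 5 of 9, among them Itgam (4.60), the β2 chain Itgb2 (3.47) and Itgal (2.93), whose product forms LFA-1, another receptor of ICAM-1, with the β2 chain. Of 7 activation genes tested, 3 rose, of 10 cytokines and growth factors 6 rose and 2 fell, of 7 lymphatic genes Flt4 rose (2.28), and of 6 junction genes Jam3 fell by 0.91.

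At 72 h, Vcam1 was at its highest, and Pecam1, Kdr and Cdh5 were all above naïve mice. Vcam1 was 71.1, 78.0, 69.6 and 55.1 CPM, a log2 fold change of 2.20 ± 0.15 (SE) with an adjusted p of 1.03e-06, and Icam1 was 19.2, 13.1, 11.2 and 13.1 CPM, a log2 fold change of 1.95 ± 0.26 (SE) with an adjusted p of 1.04e-04. Kdr was 20, 19.6, 21.1 and 26.6 CPM (log2 fold change 1.15 ± 0.17 SE, adjusted p of 1.88e-04). Pecam1 was 22.8, 20.3, 23.4 and 25.4 CPM (1.12 ± 0.16 SE, adjusted p of 1.84e-04). Cdh5 was 10.7, 9.63, 8.98 and 12.1 CPM (0.68 ± 0.20 SE, adjusted p of 0.0133). None of these 5 overlapped with the naïve libraries, and the share of all genes without overlap was not counted. Selp, at 1.68, 0.602, 1.13 and 1.69 CPM, overlapped with them, with a log2 fold change of 1.65 ± 0.74 (SE) and an adjusted p of 0.0778, which became 0.0498 without IM72h library 2 and 0.0496 without naïve library 2, and with library totals 0.0154, or 0.0420 without AY036118. Cldn5 stood at 1.30 to 2.94 CPM, Vwf at 3.09 to 7.35 CPM and Ackr1 at 2.56 to 4.94 CPM, all overlapping with the naïve range, and Ackr1 had a log2 fold change of -0.48 ± 0.36 (SE) with an adjusted p of 0.270. Of the 9 members, 5 were called higher and 0 lower, against 29.3% and 28.3% of 16592 genes. With scaling to the 3 reference genes, which moved the median of all genes to -0.58, the calls of Kdr (0.56, adjusted p of 0.0613) and Cdh5 (0.07, adjusted p of 0.820) were lost and Ackr1 was called lower (-1.05, adjusted p of 0.0366).

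Further lists at 72 h are read beside the 29.3% of all genes called higher and the 28.3% called lower. Of 25 vessel genes, all were tested, 17 rose and 0 fell, with a median log2 fold change of 1.01 against 0.02 for all genes. The transcription factor Sox18 (2.99), the guidance receptor Robo4 (2.76), the diaphragm protein Plvap (2.62) and Tie1 (2.37) changed most. Leukocyte partners rose in 7 of 9, among them Itgam (3.86) and Itgal (2.64). Of the 7 lymphatic genes, 3 rose, Flt4 (2.5), Ccl21a (2.49) and Lyve1 (0.79). Of the 7 junction and transmigration genes tested, 4 fell, among them Jam2 by 1.60 and Tjp1 by 1.02, and F11r rose by 1.06. Of 7 activation genes tested, Lrg1 (2.46), Procr (1.98) and Angpt2 (1.57) rose and 2 fell, among them endothelin-1, Edn1, by 2.30. Of 8 cytokines, growth factors and receptors tested, Il1b (3.29) and the TNF receptor Tnfrsf1b (2.57) rose and 4 fell, among them Vegfc by 2.68 and Angpt1 by 1.68.

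IM72h and IM24h were also compared with each other, since both groups carry the same mouse line. Vcam1 was higher at 72 h, where every library lay above every IM24h library, with a log2 fold change of 0.81 ± 0.15 (SE) and an adjusted p of 0.00156, and it stayed called in all 15 alternatives. Icam1 fell by 0.62 ± 0.22 (SE) on the log2 scale with an adjusted p of 0.0492. Its groups overlapped, and the call was lost without IM24h library 2 (adjusted p of 0.123) or 3 (0.104) and without IM72h library 2 (0.133), 3 (0.154) or 4 (0.114). Selp lay lower in every IM72h library, with an adjusted p of 0.160. No other member passed the test. Of the 9 members, 1 was called higher and 1 lower, against 18.6% and 19.9% of 16281 genes. Of the 25 further endothelial genes, 5 were higher at 72 h than at 24 h and 2 lower, the largest change being that of Cd34 (2.43), and Edn1 fell by 2.47.

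Over the 14 ME libraries the adhesion genes followed different courses. The level of Icam1 correlated with that of Selp at r = 0.916 and with that of Vcam1 at r = 0.228, and Vcam1 correlated with Kdr at r = 0.856. These are descriptions on log2 CPM, and the points share their groups, depth and mouse lines. By the same measure, the genes most like the mean profile of Icam1, Vcam1 and Selp among 17910 genes were Gm38316 (r = 0.979), Por (0.978), Ifi211 (0.967), Bcl3 (0.966) and Cxcl10 (0.962). Those most like the mean profile of Pecam1, Cdh5, Kdr and Cldn5 were C5ar1 (0.966), Lamp2 (0.953), Ifngr2 (0.939), Tmem173 (0.935) and Prkcd (0.934). Among the time groups, the mean level of Icam1 was highest at IM3h (92.6 ± 27.5 CPM, SD, n = 3), followed by IM24h (21.1 ± 4.67 CPM, n = 4), IM72h (14.1 ± 3.47 CPM, n = 4) and naïve mice (3.48 ± 1.03 CPM, n = 3), and the libraries of IM24h and IM72h overlapped. For Vcam1 the order was IM72h (68.4 ± 9.61 CPM), IM24h (38.1 ± 4.15 CPM), IM3h (24.5 ± 3.93 CPM) and naïve mice (14.6 ± 0.125 CPM), with no overlap between neighbours.

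Markers of other cell types moved in the same ME libraries. The summed level of 8 leukocyte genes was 106 to 136 CPM in naïve mice, 129 to 145 CPM at IM3h, 183 to 726 CPM at IM24h and 268 to 391 CPM at IM72h, and 3 of 6, 4 of 6 and 7 of 7 tested were called higher at the 3 time points, when 19.3%, 15.6% and 29.3% of all genes were. At 3 h these were S100a8 (6.28 on the log2 scale) and S100a9 (5.79), calprotectin genes of neutrophils, and the macrophage gene Cd68 (1.22), while Csf1r, the receptor that macrophages need, fell by 0.40, the 1 gene of the list called lower at any of these times. The 5 platelet genes listed of 7 summed to 39.2 to 50.6 CPM in naïve mice, 45.2 to 87.1 CPM at IM3h, 104 to 199 CPM at IM24h and 124 to 155 CPM at IM72h, and 1 of 3 tested rose at 3 h (Gp1bb, by 0.99 on the log2 scale, adjusted p of 0.0331), 1 of 4 at 24 h (Pf4, 2.47) and 3 of 3 at 72 h (Pf4, 1.75, Gp1bb, 1.64, and Itga2b, 1.19). The 6 mesothelial genes summed to 136 to 169 CPM, 15.8 to 64.1 CPM, 7.61 to 121 CPM and 42.0 to 105 CPM in the same order, and 6 fibroblast genes to 2630 to 2767 CPM, 1173 to 1390 CPM, 1775 to 4099 CPM and 4352 to 5175 CPM. The 6 pericyte genes summed to 4973 to 5603 CPM, 4587 to 6064 CPM, 2303 to 2845 CPM and 1776 to 2286 CPM, and 5 smooth muscle genes to 19430 to 20890 CPM, 14785 to 17471 CPM, 3020 to 9349 CPM and 10692 to 17290 CPM. Fibroblast genes were called lower in 5 of 6 tested at 3 h, beside 13.4% of all genes, and higher in 3 of 6 at 72 h, beside 29.3%. No gene of these lists was at 0 throughout a group. The part of these cells in the levels of Pecam1, Selp, Vwf, Icam1 and Vcam1, which leukocytes, platelets or stromal cells can also express, was not tested. The part of glia was not tested either. As given below, Vcam1 was higher in naïve RiboTag than in naïve ME, and Cldn5 rose in RiboTag at 3 h. In bulk RNA, more endothelial cells and more RNA per cell cannot be told apart.

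**Figure D2:**
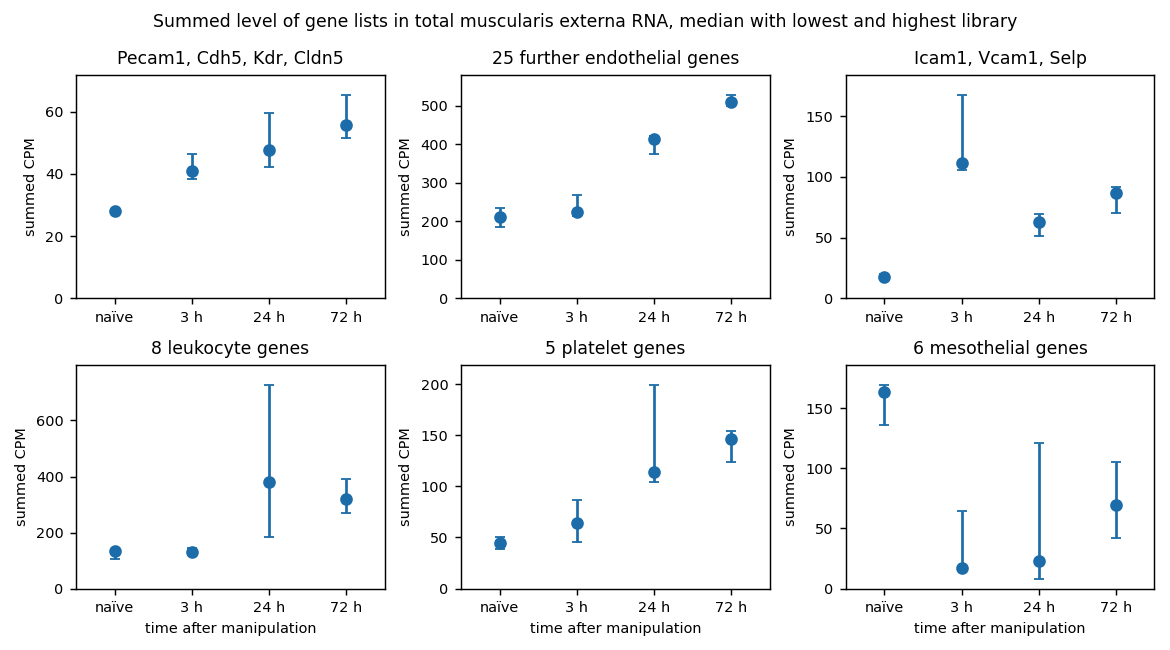
Each panel plots the summed TMM-scaled CPM of a gene list in total ME RNA against time after manipulation, as the median library with bars from the lowest to the highest. The median of the 4 identity genes is 28 CPM in naïve mice and 55.8 CPM at 72 h, and that of the 25 further endothelial genes 210 and 510 CPM, while the leukocyte list is widest at 24 h (183 to 726 CPM).

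The RiboTag fraction of naïve mice was set against total ME RNA to see whether the 10 genes are present in glial precipitates. Of the 10 genes, Vcam1 was higher in RiboTag and no other passed the test with TMM scaling. Glial genes were higher in 6 of 6, with a median log2 difference of 3.44, and smooth muscle genes were lower in 4 of 5 (median -1.54). The mouse line differs between these 2 sets of libraries, so fraction and line cannot be told apart here. Vcam1 was 61.4, 41.5 and 51.2 CPM in naïve RiboTag libraries, each on the scale of its own fraction, and its log2 difference from naïve ME was 2.17 ± 0.22 (SE) with an adjusted p of 3.34e-04, called in all 11 alternatives. Icam1 was 21.2, 8.25 and 3.20 CPM, a wide spread, with a log2 difference of 1.99 ± 0.67 (SE) and an adjusted p of 0.0577, which became 0.0197 without naïve RiboTag library 3, 0.0180 with DESeq2, 0.0120 with library totals and 0.0220 with library totals without AY036118. Pecam1 had a log2 difference of 0.62 ± 0.35 (SE) with an adjusted p of 0.223, which became 0.0149 with library totals and 0.0390 without AY036118, settings that moved the median of all genes to 0.72 and 0.46. Cdh5, Kdr, Ackr1 and Vwf had adjusted p-values from 0.528 to 0.902. Of the 7 members tested, 1 was called, against 26.1% of 14769 genes in either direction. Of the further endothelial genes, 1 was higher (Egfl7) and 1 lower (Aqp1) among 19 tested, with a median of 0.05. The part of RNA from cells without the tag in the precipitate was not tested.

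At 3 h, Cldn5 was the only member called in RiboTag. It was 1.78, 0.678 and 1.90 CPM in naïve libraries and 6.96, 19.6, 16.5 and 14.9 CPM at IM3h, without overlap, from 6 to 16 counts against at least 90. The log2 fold change was 3.37 ± 0.62 (SE), 10.4-fold, with an adjusted p of 0.00427. The call held without each library in turn (adjusted p of at most 0.0220), and was lost when all 4 RiboTag groups were fitted together (adjusted p of 0.831), a fit that shares 1 estimate of the spread with the IM24h and IM72h libraries. Cldn5 and Icam1 are both in the study's list of acute gliosis genes, which joins published gliosis genes checked in these RiboTag libraries with genes added for their strong rise in them, so the list is no independent evidence of direction here. Icam1 was 13.1, 37.3, 36.3 and 36.8 CPM at IM3h against 3.20 to 21.2 CPM in naïve libraries, with overlap, a log2 fold change of 1.56 ± 0.58 (SE) and an adjusted p of 0.103, which became 0.0291 without naïve RiboTag library 1. Vcam1 was 79.9, 44.5, 32.3 and 43.1 CPM, with an adjusted p of 0.989. Cdh5 was lower in every IM3h library, at 0.764 to 2.90 CPM against 3.39 to 5.81 CPM, but its adjusted p was 0.361, and Pecam1, Kdr, Ackr1 and Vwf overlapped. Of the 8 members tested, 1 was called higher and 0 lower, against 8.86% and 4.44% of 16053 genes.

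Further lists in RiboTag at 3 h are read beside the 8.86% of all genes called higher and the 4.44% called lower. Of 21 further endothelial genes tested, 0 rose and 1 fell (Egfl7, by 1.69 on the log2 scale), with a median of -0.19 against -0.04 for all genes. Of 7 activation genes tested, Thbd rose (2.39). Of 9 cytokines and growth factors, Vegfa rose (1.96) and Vegfb fell (by 2.44). Of 5 leukocyte genes tested, 0 were called, and of 6 leukocyte partners Itgam rose (2.24). The 8 leukocyte genes summed to 52.3 to 90.5 CPM in naïve RiboTag libraries and 35.6 to 80.4 CPM at IM3h. Fibroblast genes were called lower in 4 of 6, mesothelial genes in 4 of 5 and smooth muscle genes in 2 of 5, and the part of these cells in the RiboTag values was not tested.

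**Figure D3:**
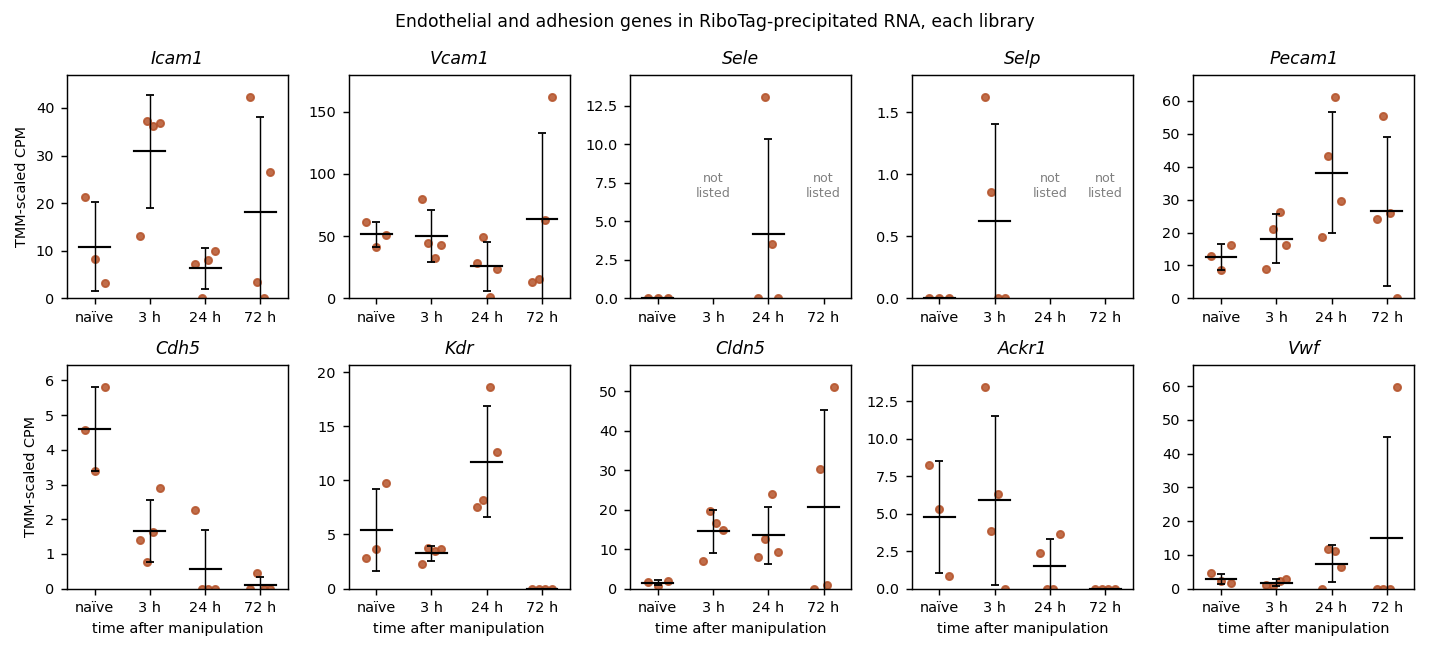
Each panel plots 1 gene in RiboTag RNA, with the level of each library in TMM-scaled CPM on the y axis and naïve mice and the time after manipulation on the x axis. Points are libraries, the horizontal line is the mean and the bar the SD, drawn from 0 up. Cldn5 lies above naïve in all 8 libraries of 3 h and 24 h, whereas at 72 h the libraries of Icam1, Pecam1, Cldn5 and Vwf spread from 0 upward. Sele and Selp have no points where the table does not list them.

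At 24 h and 72 h, where the RiboTag libraries stand apart in glial genes and in genes with a count, the members spread widely. At IM24h, Cldn5 was 8.06, 12.7, 23.9 and 9.17 CPM and Pecam1 18.8, 43.3, 61.2 and 29.6 CPM, both above every naïve library, with log2 fold changes of 3.20 ± 1.23 (SE) and 1.63 ± 0.63 (SE) and adjusted p-values of 0.254 and 0.259. DESeq2 gave Cldn5 an adjusted p of 0.0126. Vcam1 ranged from 0.887 to 49.5 CPM. Cdh5 had 18 counts in 1 library and 0 in the other 3. Sele, whose product E-selectin is made by activated endothelium, was listed in this table only, with 0, 32, 8 and 0 counts at IM24h and 0 in the 3 naïve libraries, at least 18.8-fold higher against a floor of 3 counts over the naïve group, and it did not reach the filter for testing. Library 2 of IM24h decides this bound, which was 4.35-fold without it, 33.8-fold without IM24h library 1, and 12.2-fold and 12.5-fold without naïve libraries 2 and 3. Selp was listed only in the table of IM3h, with 21, 9, 0 and 0 counts and 0 in naïve libraries, at least 5.89-fold higher against the same floor, a bound that was 2.54-fold without IM3h library 1, and 3.82-fold and 3.92-fold without naïve libraries 2 and 3. Sele and Selp were each listed only through these counts, so both bounds describe the counts and give no evidence of a rise. Of the 8 members tested at IM24h, edgeR called 0, against 0.366% higher and 0.131% lower of 15304 genes.

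At IM72h, Kdr had 0 counts in all 4 libraries against 22, 32 and 82 in naïve ones, at least 12.7-fold lower against a floor of 3 counts over the group (adjusted p of 0.0123). Cdh5 had 0, 1, 0 and 0 counts against 36, 30 and 49, a ratio of 32.2 with an exact 95% interval for counting error of 5.66 to 1283 (adjusted p of 0.0127). Ackr1 also had 0 in all 4 libraries against 65, 47 and 7, at least 11.1-fold lower, and was not tested. Without naïve library 3 the bound of Kdr was 7.58-fold, without naïve library 1 that of Ackr1 was 7.33-fold, and without IM72h library 2, which holds the 1 count, Cdh5 was at least 7.27-fold lower. Both calls were lost without the filter on low counts (adjusted p of 0.148 for Kdr and 0.159 for Cdh5), and that of Cdh5 also with DESeq2 (0.0558) and with all 4 groups in 1 fit (0.122). In the same libraries Pecam1 was 24.2, 55.4, 25.9 and 0 CPM, Cldn5 0, 30.4, 0.960 and 51.1 CPM, Icam1 0 to 42.3 CPM and Vcam1 13.3 to 162 CPM. With this spread, whether endothelial RNA fell as a whole cannot be read. Of the 7 members tested, 0 were called higher and 2 lower, against 1.05% and 15.1% of 13572 genes. Of 15 further endothelial genes tested, 5 were called lower. These calls stand beside a fall of Sox10 and of the number of genes with a count in the same libraries, and the part of library quality in them was not tested.

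Whether the response at 3 h differed between the fractions was tested as the interaction of fraction and treatment, in which the mouse line of the ME libraries differs from that of the RiboTag libraries in both groups. The rise of Icam1 was smaller in RiboTag than in ME, by 3.09 ± 0.74 (SE) on the log2 scale, with an adjusted p of 0.0461. Of 13 fits without 1 library, the call held only without RiboTag IM3h library 4 and without naïve RiboTag library 3, while the difference ran from -3.53 to -2.17 and the adjusted p from 0.0131 to 0.146. It was also lost with the 3 reference genes (0.101). Cldn5 rose more in RiboTag by 2.64 ± 0.77 (SE), with an adjusted p of 0.103, and DESeq2 gave 0.0325. Of the 9 members tested, 1 was called, against 1.66% of 17617 genes in either direction. At 24 h, the difference was -3.30 ± 1.24 (SE) for Icam1, -2.33 ± 0.92 (SE) for Vcam1 and 3.0 ± 1.11 (SE) for Cldn5, with adjusted p-values of 0.241, 0.265 and 0.230, and edgeR called 0 of 8 members, against 0.537% of 17508 genes. In ME the mouse line also changes between naïve mice and IM24h, so this interaction cannot be told apart from the line.

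**Figure D4:**
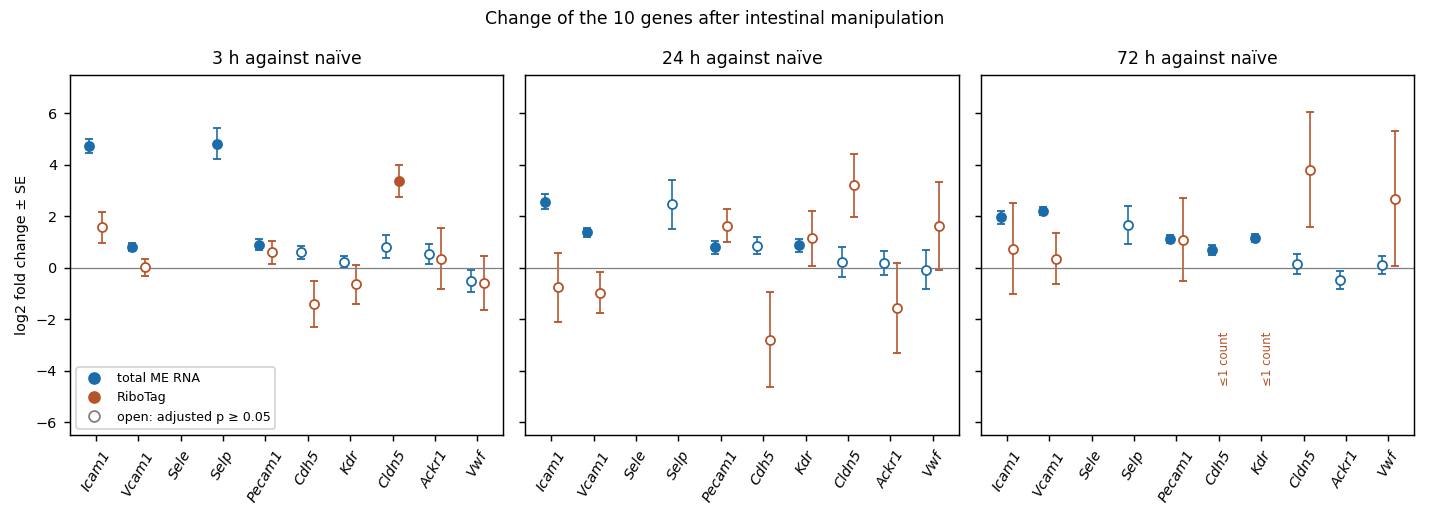
The 3 panels plot the log2 fold change against naïve mice with its SE for each gene at 3 h, 24 h and 72 h, in blue for total ME RNA and in brown for RiboTag. Filled points have an adjusted p under 0.05, Kdr and Cdh5 of RiboTag at 72 h are written as at most 1 count a library, and genes without a point were not tested. Icam1 and Selp are the highest blue points at 3 h (4.73 and 4.82), and Cldn5 is the only filled brown point.

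The fractions were last compared within IM24h, where both carry the same mouse line, but where the RiboTag libraries are those with fewer genes with a count and less Sox10 than naïve ones. Cldn5 was higher in RiboTag than in ME by 3.05 ± 0.84 (SE) on the log2 scale with an adjusted p of 0.0351. The call was lost without any 1 of the 4 ME libraries, with adjusted p-values of 0.131, 0.108, 0.129 and 0.104 for libraries 1 to 4, and with scaling to the library total (0.172) or to the 3 reference genes (0.306). Pecam1 had a log2 difference of 1.42 ± 0.49 (SE) with an adjusted p of 0.0836, and Cdh5, with counts in 1 of 4 RiboTag libraries, had an adjusted p of 0.109. Without IM24h RiboTag library 1 these became 0.0316 and 0.0142. Of the 8 members tested, 1 was called, against 12.1% of 14642 genes in either direction.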

How the data were processed

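The authors made 3′ end libraries, trimmed the single-end reads with cutadapt, placed them on mm10 with STAR within Partek Flow and estimated transcript counts on the Ensembl annotation. They deposited 5 tables of estimated counts per gene or transcript, not scaled for library size, and 4 tables of their own comparisons (p-values, step-up FDR, ratios, fold changes and group means), which were not used. Libraries were grouped by the group entry of each table line. Line names match no sample label, so groups were mapped as a whole. Transcript counts were summed by gene symbol and rounded. Genes were tested with edgeR 4.0.16 (R 4.3.3, limma 3.58.1): filterByExpr, TMM, quasi-likelihood test, two-sided, Benjamini-Hochberg adjustment over all genes tested, and a call at an adjusted p under 0.05. Standard errors follow from the log2 fold change and its F value. For correlations, CPM were taken to log2 after adding a prior count of 2. Tables list only features with a total of at least 10, so the level of an unlisted gene was left out. In the pooled RiboTag fit, the scaling of RiboTag levels and the list sums, such genes stood as 0. A floor of 3 counts covers counting error only. Alternatives were DESeq2 1.42.0, other scalings, no filter, pooled fits, the ME transcript table and leaving out each library. Of each gene list, up to 4 called genes with the largest change are named, and Aqp1 at 24 h was named after its value was seen. Some genes that the rule names are not reported here. Scripts were tested on simulated data. Members and lists were chosen with earlier results of these data known. Motifs were searched in RefSeq promoters.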

Additional observations from a re-analysis of the deposited data

Results flagged for a closer look

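In 5 of 42 groups of 4 libraries with a spread, the most distant library of a member lay past Dixon's 95% critical value, and chance alone gives about 1 in 20 for values without ties. In 3 of the 5 groups the other libraries are all at 0, so any count there passes, and the 1 in 20 does not apply to them. In RiboTag at IM3h, library 1 was the lowest for Icam1, at 13.1 CPM with the next at 36.3 CPM, and for Kdr, at 2.24 CPM with the next at 3.49 CPM. In RiboTag at IM24h, Cdh5 was 2.27 CPM in library 1 and 0 in the others. In RiboTag at IM72h, Vwf was 59.7 CPM, from 97 counts, in library 4, and Cdh5 was 0.440 CPM, from 1 count, in library 2, each with 0 in the other libraries. No group of 4 ME libraries was past the value.

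The change of Icam1 at IM3h differed between the fractions by -3.09 on the log2 scale (RiboTag minus ME, adjusted p of 0.0461 for the interaction in edgeR). In ME all 3 IM3h libraries lay above all naïve ones, and in RiboTag 3 of 4 did.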

How the results depend on the processing

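Counts of members called moved by over 1.5 times as follows. With scaling to Actb, Hsp90ab1 and Rplp1 they were 2 in ME at IM3h and 2 at IM24h (4 each in the results), 0 for the interaction at IM3h and 0 for RiboTag against ME at IM24h (1 each). With DESeq2 they were 1 in RiboTag at IM24h (0), 1 at IM72h (2), 2 and 1 for the interaction at IM3h (1) and IM24h (0), and 2 and 3 for RiboTag against ME in naïve mice and at IM24h (1 each). With library totals they were 3 for RiboTag against ME in naïve mice, also without AY036118 (an alternative added after seeing the data), and 0 at IM24h. Without the filter they were 2 in RiboTag at IM3h (1), 0 at IM72h (2), 1 for IM72h against IM24h in ME (2) and 0 for RiboTag against ME at IM24h (1). With 4 groups in 1 fit they were 0 in RiboTag at IM3h and 1 at IM72h. Leaving out each library gave 2 to 5 calls in ME at IM24h, 4 to 4 at IM3h, 5 to 6 at IM72h, 1 to 2 for IM72h against IM24h, 1 to 2 in RiboTag at IM3h, 0 to 0 at IM24h, 2 to 3 at IM72h, 0 to 1 for each interaction, 1 to 2 for RiboTag against ME in naïve mice and 0 to 3 at IM24h. The cause was not tested. Among list genes named in the results and members with an adjusted p under 0.3, signs turned for Itgb1 in ME at IM3h, called with TMM (-0.0696 with the reference genes), Ackr1 in ME at IM72h (0.13 with library totals) and Pecam1 in RiboTag at IM24h (-0.13 with the reference genes). Over all members the sign turned in 40 of 549 values of other settings, 17 of them with the reference genes and 14 with library totals, and in 40 of 744 values without 1 library, and 0 of these were called in either fit. No paired analysis was possible because the lines of the tables carry no replicate numbers. Low counts limit Selp, Cldn5 and Vwf in ME and all members in RiboTag at IM72h.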
